A study of Mus musculus with 12 samples.

Results

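Ribosome assembly factors are the proteins that build the small and large ribosomal subunits and then leave them. In mouse megakaryocyte cultures given dexamethasone for 6 h, the RNA of 24 of 49 tested genes of this pathway was lower than in vehicle, that of 2 was higher, and the other 23 did not pass the test. Over all genes tested, 4.56% were lower and 7.39% were higher. Besides 25 small and 19 large subunit factors, the set holds 3 genes of RNA polymerase I transcription and 5 with other nucleolar roles. Of these 52 named genes 50 have a value, each on 1 probe set, among the 30140 genes that a probe set with a single gene symbol names on this array. Ebna1bp2 and Gnl3 lie only on probe sets that carry several symbols and have no value here. Rrs1, an assembly factor of the large subunit, was below the negative control median (the median of probe sets that should detect no RNA) on all 12 arrays and failed the filter on low values, so it was not tested. The genes were chosen by their pathway and by their change under dexamethasone on these same arrays. Their listing opens with Ruvbl1, Rsl24d1, Mphosph10, Pum3, Srfbp1, Nol10, Wdr77, Tma16, Ddx21 and Wdr75, which are in order the 10 largest falls of the set, so these 10 are described with no p-value. Without these 10, 14 of 39 tested members were lower. The other members were listed by family name, and their p-values describe the fit over all genes and give no support to the choice.

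The cells came from bone marrow of male C57BL/6 mice, whose hematopoietic stem cells spent 3 days with 100 ng/ml of thrombopoietin, the hormone that drives megakaryocyte formation. They stood overnight in medium with 10% charcoal-stripped serum, which is depleted of steroids, and megakaryocytes were purified on an albumin gradient on day 4. Each of 6 cultures gave 1 sample treated with the synthetic glucocorticoid dexamethasone at 100 nM and 1 treated with vehicle, so both groups share strain, sex, cytokine and serum, and 6 arrays stand against 6. Cultures are called 1 to 6 here after the replicate numbers in the labels, and the labels' own culture numbers for these are 1, 4, 5, 6, 7 and 8. The cultures are labelled as biological replicates, but not whether they came from separate animals, so p-values measure the spread between these cultures. Values are the deposited log2 values of 1-colour arrays, and a change is dexamethasone minus vehicle on that scale, from a paired fit over 24264 genes.

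Ribosomes are assembled in the nucleolus. RNA polymerase I transcribes the long precursor of the ribosomal RNAs, and the small subunit processome, which contains the U3 small nucleolar RNA particle, folds and cuts the part that becomes the small subunit. Other helicases, GTPases and scaffold proteins mature the large subunit, and both particles are exported and finished in the cytoplasm. In many cells the genes of this machinery are targets of the transcription factor MYC.

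Because many members moved in 1 direction, the promoters of members from each side of the response are printed here. The windows are RefSeq sequences of the GRCm38.p6 build, 5′ to 3′ on the strand of the gene, and cover the 250 bases before the annotated start. Capitals mark CCGGAAG or its reverse complement CTTCCGG, a sequence that factors of the ETS family can bind, called the ETS site here. Shorter or variant ETS sequences were not searched for. Ruvbl1 (chr6:88465159-88465408, plus strand), Rsl24d1 (chr9:73113219-73113468, plus strand) and Mphosph10 (chr7:64392237-64392486, minus strand) are the 3 members with the largest falls. Ltv1 (chr10:13193138-13193387, minus strand) and Heatr1 (chr13:12395125-12395374, plus strand) were called lower outside the 10 listed first, and Ddx52 (chr11:83941840-83942089, plus strand) is 1 of the 2 members that rose. No other annotated gene lies within these windows.
Ruvbl1: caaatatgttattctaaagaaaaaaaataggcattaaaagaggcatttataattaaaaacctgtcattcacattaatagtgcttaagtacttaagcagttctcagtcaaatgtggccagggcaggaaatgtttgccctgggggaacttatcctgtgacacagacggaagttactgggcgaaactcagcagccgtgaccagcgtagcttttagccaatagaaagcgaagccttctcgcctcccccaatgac
Rsl24d1: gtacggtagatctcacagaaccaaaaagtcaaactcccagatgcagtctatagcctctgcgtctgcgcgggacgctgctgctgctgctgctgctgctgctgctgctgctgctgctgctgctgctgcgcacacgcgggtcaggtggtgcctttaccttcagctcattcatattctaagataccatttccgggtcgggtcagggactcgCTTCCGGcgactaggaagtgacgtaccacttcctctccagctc
Mphosph10: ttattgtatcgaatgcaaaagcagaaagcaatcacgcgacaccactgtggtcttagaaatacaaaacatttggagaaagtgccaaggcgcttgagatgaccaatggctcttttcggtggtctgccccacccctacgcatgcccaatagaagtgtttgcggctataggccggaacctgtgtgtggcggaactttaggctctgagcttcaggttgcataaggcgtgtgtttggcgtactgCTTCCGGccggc
Ltv1: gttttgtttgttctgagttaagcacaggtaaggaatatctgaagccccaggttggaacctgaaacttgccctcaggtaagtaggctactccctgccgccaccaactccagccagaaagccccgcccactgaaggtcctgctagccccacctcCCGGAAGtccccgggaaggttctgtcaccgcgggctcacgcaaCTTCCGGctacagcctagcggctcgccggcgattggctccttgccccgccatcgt
Heatr1: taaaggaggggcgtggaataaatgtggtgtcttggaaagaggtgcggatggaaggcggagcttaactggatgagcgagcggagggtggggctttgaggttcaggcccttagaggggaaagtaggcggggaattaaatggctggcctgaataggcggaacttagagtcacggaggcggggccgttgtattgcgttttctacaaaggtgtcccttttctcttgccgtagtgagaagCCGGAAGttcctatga
Ddx52: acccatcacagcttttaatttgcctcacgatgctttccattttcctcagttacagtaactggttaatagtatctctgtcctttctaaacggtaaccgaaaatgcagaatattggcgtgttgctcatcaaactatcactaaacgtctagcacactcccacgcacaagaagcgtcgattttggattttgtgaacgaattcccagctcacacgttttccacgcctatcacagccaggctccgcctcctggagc

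Ltv1 holds 2 copies of the ETS site CCGGAAG before its start, Rsl24d1, Mphosph10 and Heatr1 hold 1 each, and the windows of Ruvbl1 and Ddx52 hold none. The printed windows are examples and give no share of the members. Over a window that also takes in 50 bases after the start, CCGGAAG was found on either strand in 16 of the 45 members with a RefSeq window (35.6%). The share was 9.93% of 27025 genes with a window and 22.8% of the 7372 of them whose probe set was above the negative control median on all 12 arrays. A gene with several windows counts if any of them holds the letters. The ETS site was present in 11 of the 22 members called lower, or 8 of 13 without the 10 genes listed first, and in 5 of the other 23. These 23 include Ebna1bp2, which is 1 of the 5, and Gnl3, and neither has a value on these arrays. In 9 of the 45 members a copy of the ETS site lay before the start, and that share was not counted over all genes. The MYC-binding E-box CACGTG, which reads the same on both strands, was found in 9 members (20%), against 8.09% of all genes and 11.7% of the genes above the negative control median. In only 2 of these 9 did it lie before the start. It was in 6 of the 22 members called lower, or 4 of 13 without the genes listed first, and in 3 of the other 23. The glucocorticoid response element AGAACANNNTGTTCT was in no member, in 0.0111% of all genes with a window and in 0% of those above the negative control median. The single arm AGAACA, contained in the full element, was in 9 members (20%), against 21.3% of all genes and 14.7% of those above the negative control median. That arm was in 3 of the 22 members called lower, or 2 of 13 without the genes listed first, and in 6 of the other 23. Of the 2 members that rose, Noc4l holds the arm AGAACA but neither the ETS site nor the E-box, and Ddx52 holds none of the 3. These matches describe letters in a short window, not binding.

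Over all genes tested, 2900 (12.0%) passed an adjusted p of 0.05, with 1106 (4.56%) lower and 1794 (7.39%) higher in dexamethasone. The members called lower were 24 of 49 (49%), and since the contrast chose part of the set, nothing is read from the distance between these shares. Without the 10 genes listed first, 14 of 39 (35.9%) were lower, 2 were higher and 23 did not pass. The median change was -0.20 over the members and -0.17 without those 10, against -0.01 over all genes tested. Among the 11693 genes with mean levels between 6.50 and 16.05, the members' own range, 7.76% were lower and 12.6% were higher, with a median change of 0.03. With each array centred on its median 17 members were called lower, and Polr1a, Riok2, Tsr1, Bms1, Utp14a, Nop16 and Noc2l lost the call (limma adjusted p between 0.0529 for Riok2 and 0.104 for Bms1). With quantile normalization 37 were called lower.

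**Figure D1:**
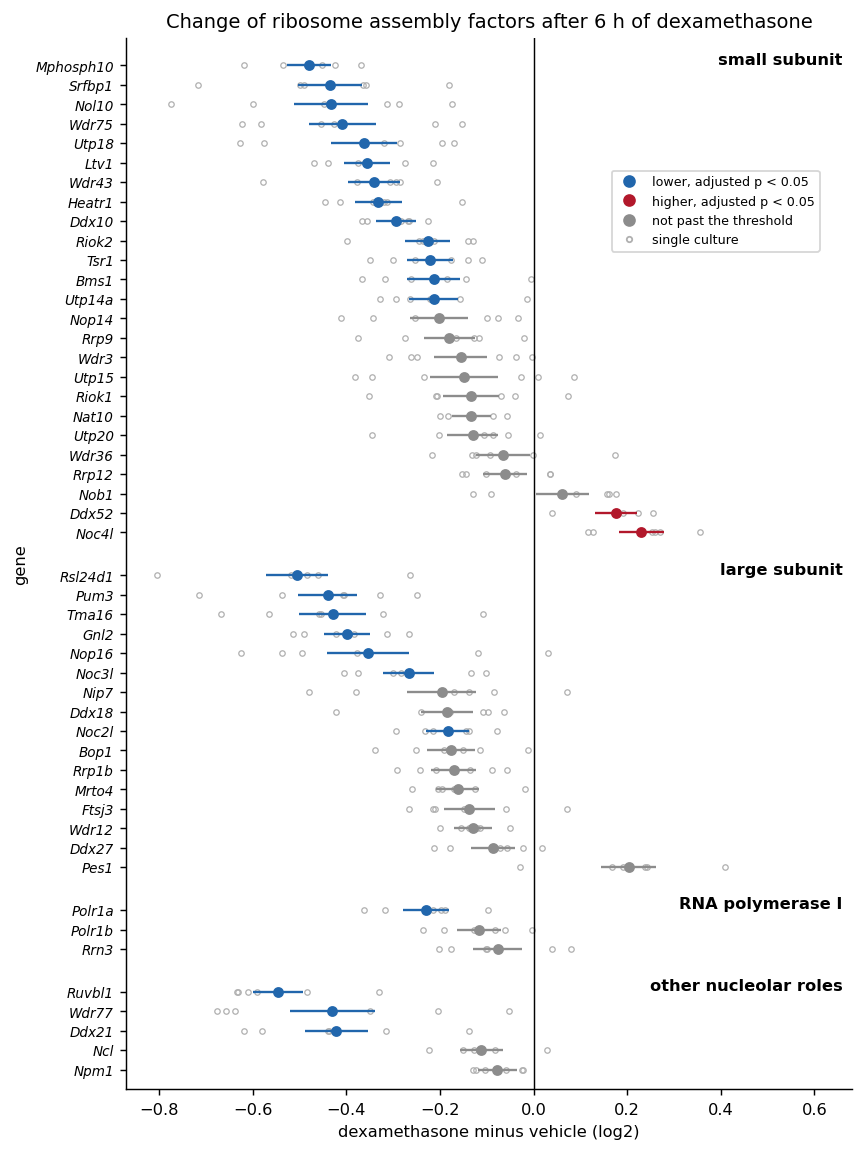
Change of each tested member after 6 h of dexamethasone, as dexamethasone minus vehicle on the log2 scale, with the standard error of the fit as a bar and each of the 6 cultures as an open circle. Genes are ordered by change within their class, blue marks the 24 called lower, red the 2 called higher and grey the 23 that did not pass; 45 of the 49 points lie left of 0.

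The falls were small. Among the members called lower the level was between 12.0% and 31.6% below vehicle, and no member moved as much as 2-fold. Of the 49 tested, 45 had a negative change (54.3% of all genes tested), 34 were lower in all 6 cultures (8.32% of all genes) and 2 were higher in all 6 (11.2% of all genes). Without the 10 genes listed first, 35 of 39 had a negative change and 24 of 39 were lower in all 6 cultures. In 18 members the highest dexamethasone array was still under the lowest vehicle array (2.63% of all genes), and in none did the groups separate the other way (4.10% of all genes). Among the 23 that did not pass, 21 had a negative change and 11 of the 23 were lower in all 6 cultures. In these bulk cultures, fewer cells of a type and less RNA per cell cannot be told apart.

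Among the 25 small subunit members 13 were called lower (52%), 2 higher and 10 neither, with a median change of -0.21. At an unadjusted p under 0.05 in limma, 18 were lower and 2 higher, against 11.8% lower and 14.9% higher of all genes tested. Mphosph10, a protein of the U3 particle at the heart of the processome, had vehicle values of 9.12, 9.30 and 9.39 (lowest, median and highest of 6 arrays) and dexamethasone values of 8.70, 8.79 and 8.92. Every dexamethasone array was under every vehicle array, and the change was -0.48 (SE 0.05, n = 6), or -28.3% on the linear scale. Rrp9, the other U3 protein of the set, went from 7.39, 7.49 and 7.64 to 7.26, 7.35 and 7.39. It was lower in all 6 cultures with a change of -0.18 (SE 0.05, n = 6), but the groups touched and it did not pass (limma adjusted p = 0.0687).

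The transcription-coupled subcomplex, which joins the precursor RNA while it is being made, has 4 members here: Wdr43, Wdr75, Heatr1 and Utp15. Heatr1 ran from 8.69, 8.87 and 8.99 in vehicle to 8.31, 8.51 and 8.68 in dexamethasone, with no overlap, and fell by 0.33 (SE 0.05, n = 6; limma adjusted p = 0.00311). Wdr43 gave 10.48, 10.65 and 10.99 against 10.19, 10.35 and 10.45, also with no overlap, a change of -0.34 (SE 0.06, n = 6) with an adjusted p of 0.00466 in limma. Wdr75, 1 of the 10 listed first, changed by -0.41 (SE 0.07, n = 6) and its groups were apart. Utp15 was different in that 2 of 6 cultures were slightly higher, and its change of -0.15 (SE 0.07, n = 6) did not pass (limma adjusted p = 0.229).

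Of the subcomplex that holds Utp18, Wdr3 and Wdr36, a scaffold of the early processome, Utp18 fell by 0.36 (SE 0.07, n = 6; limma adjusted p = 0.0121). Its vehicle values were 8.55, 8.65 and 8.997 and its dexamethasone values 8.09, 8.37 and 8.38, so the groups were apart although 1 array in each stood far from its 5 neighbours. Wdr3 changed by -0.16 (SE 0.06, n = 6) and Wdr36 by -0.07 (SE 0.06, n = 6), and neither passed, with limma adjusted p-values of 0.113 and 0.507. Members of 1 complex thus did not all pass together, and whether they differed from each other was not tested.

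The helicases and the GTPase of the processome went both ways. Ddx10, a DEAD-box helicase whose yeast counterpart releases a small nucleolar RNA, ran from 10.57, 10.68 and 10.83 in vehicle to 10.30, 10.38 and 10.56 in dexamethasone. All of its dexamethasone arrays were under all vehicle arrays, with a change of -0.29 (SE 0.04, n = 6) and a limma adjusted p of 0.00231. Ddx52, another DEAD-box helicase, rose by 0.18 (SE 0.04, n = 6; limma adjusted p = 0.0366), from 9.71, 9.89 and 9.99 to 9.93, 10.05 and 10.07. It was higher in all 6 cultures although the groups overlapped, and it passed in 7 of 17 other settings. Without culture 1, 2, 3, 4 or 6 its call was lost (limma adjusted p between 0.0818 and 0.0931). Bms1, the GTPase of the processome, fell by 0.21 (limma adjusted p = 0.0403), with culture 2 almost level, and Utp14a, which in yeast activates a processome helicase, fell by 0.21 (limma adjusted p = 0.0307). Each of these 2 calls held in 8 of the 17 other settings. Bms1 lost it without culture 1, 3, 4, 5 or 6 and Utp14a without culture 1, 2, 3, 5 or 6 (limma adjusted p between 0.059 and 0.105).

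Noc4l and Nop14 are bound to each other in the processome of yeast, and here their changes had opposite signs. Noc4l rose by 0.23 (SE 0.05, n = 6; limma adjusted p = 0.0156), with vehicle values of 8.48, 8.61 and 8.93 and dexamethasone values of 8.75, 8.86 and 9.04. The groups overlapped, but each culture was higher with dexamethasone than without it. The call was lost without culture 3 (adjusted p = 0.0508) and without culture 4 (adjusted p = 0.0537), at nearly the same change, and held in 11 of 17 other settings. Nop14 was lower in all 6 cultures, with a change of -0.20 (SE 0.06, n = 6), and did not pass (limma adjusted p = 0.0688). Of the remaining early factors, Nol10 changed by -0.43 (SE 0.08, n = 6) and Srfbp1 by -0.44 (SE 0.07, n = 6), both lower in 6 of 6 cultures. Nat10, which acetylates the small subunit RNA, Utp20, a very large scaffold, and Rrp12, an export factor, changed by -0.13, -0.13 and -0.06 and did not pass.

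The late factors, which act on the small subunit on its way to and in the cytoplasm, gave mixed results. Ltv1, which must be phosphorylated and released before the subunit is finished, had vehicle values of 9.64, 9.80 and 9.95 and dexamethasone values of 9.34, 9.42 and 9.59. The groups were apart, and it fell by 0.36 (SE 0.05, n = 6; limma adjusted p = 0.00183). Riok2, a kinase of the late particle, fell by 0.23 and Tsr1, a GTPase-like factor, by 0.22, with limma adjusted p-values of 0.0181 and 0.0192 and no overlap in either. Riok2 lost its call without culture 4 (adjusted p = 0.0517) and Tsr1 without culture 4, 5 or 6 (adjusted p between 0.0552 and 0.0642), in limma. The related kinase Riok1 changed by -0.13 (SE 0.06, n = 6) and did not pass. Nob1, the nuclease that makes the last cut of the small subunit RNA, ran from 7.79, 7.89 and 8.12 in vehicle to 7.88, 8.01 and 8.07 in dexamethasone. It was higher in 4 cultures and lower in 2, with a change of 0.06 (SE 0.06, n = 6) and a limma adjusted p of 0.535.

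Of the 16 large subunit members tested 7 were called lower (43.8%), none higher and 9 neither, with a median change of -0.18. At an unadjusted p under 0.05 in limma, 14 were lower and 1, Pes1, was higher, beside the same shares of 11.8% and 14.9% over all genes. Rsl24d1, which holds the place of a ribosomal protein in the immature particle, went from 10.48, 10.67 and 10.87 in vehicle to 9.97, 10.19 and 10.35 in dexamethasone. No array of one group reached the other, and the change was -0.51 (SE 0.07, n = 6), or -29.6% on the linear scale. Gnl2, a nucleolar GTPase of the particle that leaves the nucleolus, was the member with the largest fall outside the 10 listed first, 0.40 (SE 0.05, n = 6; limma adjusted p = 0.000971). Its vehicle values of 10.09, 10.27 and 10.32 lay clear of its dexamethasone values of 9.76, 9.84 and 9.90.

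Pum3, an RNA-binding protein of the Puf family, and Tma16, an assembly factor, changed by -0.44 (SE 0.06, n = 6) and -0.43 (SE 0.07, n = 6), each lower in all 6 cultures. Noc3l and Noc2l, nucleolar proteins that pair with other Noc proteins in yeast, fell by 0.27 and 0.18 (limma adjusted p = 0.0141 and 0.0323). The call of Noc2l held in 8 of 17 other settings and was lost without culture 1, 2, 3, 5 or 6 (limma adjusted p between 0.0608 and 0.0831), and that of Noc3l was lost without culture 4 (adjusted p = 0.0505). Nop16 had the widest spread between vehicle arrays of the members called lower, with vehicle values of 8.28, 8.93 and 9.18 and dexamethasone values of 8.27, 8.47 and 8.66. It was lower in 5 of 6 cultures, with a change of -0.35 (SE 0.09, n = 6) and a limma adjusted p of 0.0336, and the call was lost when culture 1, 4, 5 or 6 was left out (adjusted p between 0.0757 and 0.099).

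Pes1, Bop1 and Wdr12 form 1 complex that is needed to process the large subunit RNA, and none of the 3 passed. Pes1 ran from 8.32, 8.48 and 8.73 in vehicle to 8.55, 8.69 and 8.84 in dexamethasone, higher in 5 of 6 cultures, with a change of 0.20 (SE 0.06, n = 6) and a limma adjusted p of 0.0571. Without culture 5, the 1 culture that was not higher, its adjusted p was 0.0289. Bop1 went from 7.35, 7.43 and 7.57 to 7.16, 7.28 and 7.38 and Wdr12 from 8.47, 8.64 and 8.77 to 8.27, 8.49 and 8.65. Both were lower in all 6 cultures, with changes of -0.18 (SE 0.05, n = 6) and -0.13 (SE 0.04, n = 6) and limma adjusted p-values of 0.0619 and 0.079. The helicases Ddx18 and Ddx27 changed by -0.19 and -0.09, and Rrp1b, Mrto4, Ftsj3 and Nip7 by -0.17, -0.16, -0.14 and -0.20. None of these 6 passed. Rrs1, which was not tested, stood at 4.32 ± 0.10 (SD, n = 6) in vehicle and 4.22 ± 0.13 (SD, n = 6) in dexamethasone.

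Of the 3 members of RNA polymerase I transcription, Polr1a was called lower and the other 2 did not pass, with a median change of -0.12. Polr1a, the largest subunit of the enzyme, had vehicle values of 7.01, 7.10 and 7.34 and dexamethasone values of 6.80, 6.92 and 6.98. The groups were apart by a narrow margin, and it fell by 0.23 (SE 0.05, n = 6; limma adjusted p = 0.0166). Polr1b, the subunit that forms the active centre with it, was lower in 6 of 6 cultures with a change of -0.12 (SE 0.05, n = 6) and an adjusted p of 0.15 in limma. Rrn3, the factor that brings the polymerase to its promoter, was lower in 4 cultures and higher in 2, with a change of -0.08 (SE 0.05, n = 6) and an adjusted p of 0.383 in limma.

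Ruvbl1, Wdr77, Ddx21, Ncl and Npm1 have roles beyond assembly itself. Ruvbl1 is an ATPase of chromatin remodellers and of a chaperone that builds small nucleolar RNA particles. It went from 11.49, 11.61 and 11.88 to 10.90, 11.05 and 11.28, with every dexamethasone array under every vehicle array and a change of -0.55 (SE 0.05, n = 6). Wdr77, the partner of the arginine methyltransferase Prmt5, changed by -0.43 (SE 0.09, n = 6), with cultures between -0.68 and -0.05, and it was not called without culture 6. Ddx21, a nucleolar helicase that also acts in transcription, changed by -0.42 (SE 0.07, n = 6) and its groups were apart. Ncl and Npm1, the abundant nucleolar proteins nucleolin and nucleophosmin, did not pass. Ncl ran from 14.88, 14.997 and 15.07 to 14.76, 14.89 and 14.95 with a change of -0.11 (SE 0.05, n = 6) and a limma adjusted p of 0.162, and Npm1 from 15.99, 16.07 and 16.21 to 15.92, 16.02 and 16.11 with a change of -0.08 (SE 0.04, n = 6) and a limma adjusted p of 0.272.

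**Figure D2:**
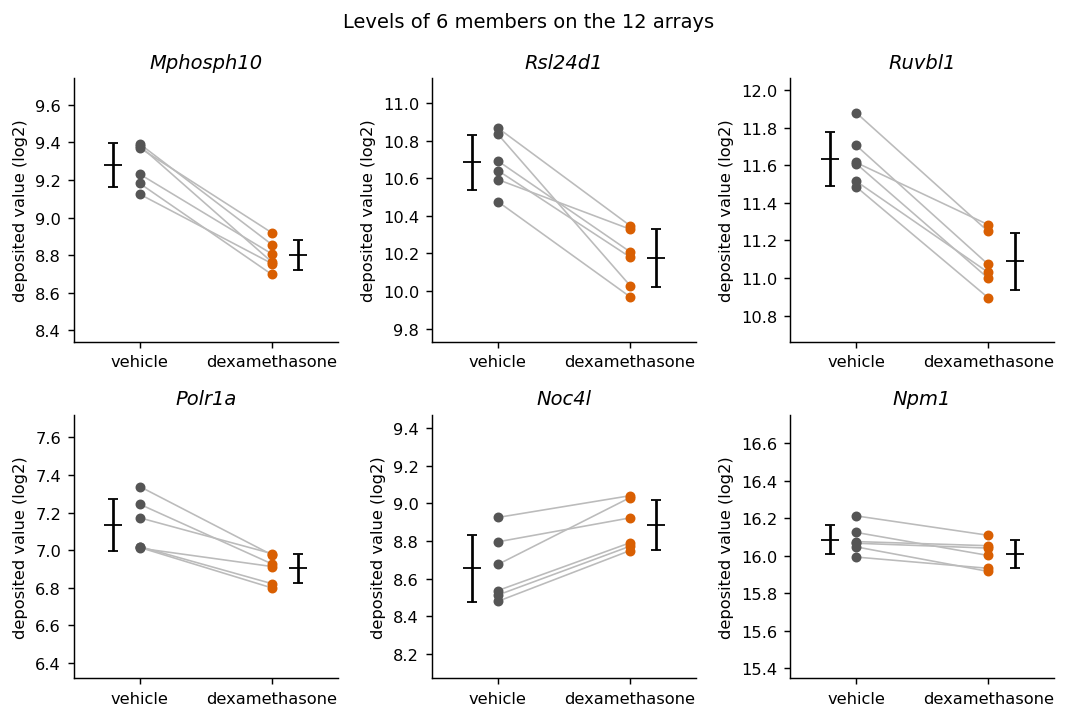
Deposited log2 values of 6 members on the 12 arrays, with a line joining the 2 arrays of each culture and the mean with its SD (n = 6) beside each group. Every panel spans the same height, and the groups of Mphosph10, Rsl24d1, Ruvbl1 and Polr1a do not overlap, Noc4l is higher in each culture and Npm1 overlaps.

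The median of each class was negative in each of the 6 cultures. The median change over small subunit members ran from -0.34 in culture 1 to -0.14 in culture 2, and that over large subunit members from -0.32 in culture 1 to -0.11 in culture 3. For the 3 RNA polymerase I members it ran from -0.20 in culture 5 to -0.06 in culture 4. Within a culture, the small subunit median was below the RNA polymerase I median in 6 of 6 (differences of -0.17 to -0.04), and the large subunit median was below it in 6 of 6 (-0.15 to -0.0057). Without the 10 genes listed first these counts were 6 and 4 of 6. The small subunit median was below the large subunit median in 5 of 6 cultures, and in 3 of 6 without those genes. No test was made between classes, since the members were chosen on these arrays and RNA polymerase I has 3. The 5 members with other nucleolar roles had a median of -0.42, with cultures between -0.49 and -0.13, but without the 3 of them listed first the median of the other 2 was -0.09. Without the 10 genes listed first, 9 of 21 small subunit, 4 of 13 large subunit and 1 of 3 RNA polymerase I members were called lower.

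**Figure D3:**
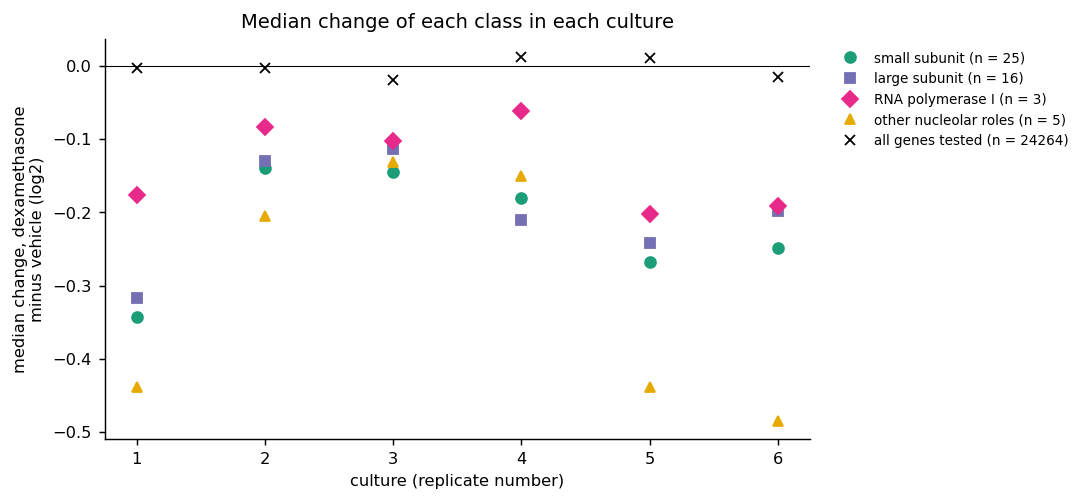
Median change of each class of members in each of the 6 cultures, dexamethasone minus vehicle on the log2 scale, with the median over all 24264 genes tested as black crosses. The class medians lie below 0 in every culture, between -0.06 and -0.49, while the crosses stay between -0.02 and 0.01.

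Cultures differed in how far the members fell. The median over all 49 was -0.32 in culture 1 and -0.26 in culture 5, and -0.13 in cultures 2 and 3. The vehicle arrays of these cultures, taken at the same 6 h, also differed: the median level over the 50 members with a value was 8.86 in vehicle culture 5 and 8.76 in vehicle culture 1, the 2 highest, and 8.47 in vehicle culture 2, the lowest. With dexamethasone the 6 medians lay between 8.39 and 8.66. The upper quartile of all probe sets was also highest in vehicle cultures 5 and 1, at 7.44 and 7.43. It was lowest, at 7.32, in vehicle cultures 2 and 3. The part of array scale in the differences between cultures was not tested. The SD between arrays was larger in vehicle than in dexamethasone for 38 of the 50 members, with a median SD of 0.14 against 0.10. That share was not counted over all genes, so it is not read as a trait of the members. The number of vehicle arrays is 6, each vehicle value enters both the level and the change, and the relation of vehicle level to change was not tested.

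Ribosome assembly genes outside the set were counted from lists written from knowledge of the pathway. Of 38 other small subunit factors tested, 7 were called lower (18.4%) and none higher, with a median change of -0.06. At an unadjusted p under 0.05 in limma, 13 were lower and 5 higher (11.8% and 14.9% of all genes tested). Dcaf13, a processome scaffold, fell by 0.34 (SE 0.05, n = 6; limma adjusted p = 0.00177) with no overlap. Utp6, Esf1 and Bysl, processome and late factors, fell by 0.35, 0.30 and 0.27, with limma adjusted p-values of 0.00466, 0.00389 and 0.0306. Of 39 other large subunit factors tested, 9 were lower (23.1%) and none higher, with a median of -0.09 and, at an unadjusted p under 0.05 in limma, 16 lower and 2 higher. Mdn1, the giant ATPase that remodels the particle, fell by 0.43 (SE 0.06, n = 6; limma adjusted p = 0.00134), from 6.88, 7.10 and 7.29 in vehicle to 6.59, 6.61 and 6.81 in dexamethasone. Rpf2, the partner of Rrs1, the related Brix1 and the export adaptor Nmd3 fell by 0.42, 0.40 and 0.30, with limma adjusted p-values of 0.0133, 0.00328 and 0.00194. Together 16 of these 77 factors were lower (20.8%). Of those named, Bysl lost its call without culture 3, 4, 5 or 6 (limma adjusted p between 0.0612 and 0.0737). The count was 8 without culture 5, 9 without culture 6 and 10 without cultures 2 and 3.

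Other lists moved less evenly. Of 12 other RNA polymerase I genes tested, 2 were lower and none higher, with a median of 0.04 and, at an unadjusted p under 0.05 in limma, 3 lower and 2 higher. They were Nolc1, a chaperone of small nucleolar RNA particles, which fell by 0.57 (SE 0.06, n = 6; limma adjusted p = 0.000335), and Mybbp1a, which fell by 0.28 (limma adjusted p = 0.0166). Of 14 exosome and trimming genes tested, the nuclease Dis3 fell by 0.34 and the nuclease Xrn2 rose by 0.34, with limma adjusted p-values of 0.0158 and 0.0023. Of 6 genes of the particle that carries the smallest ribosomal RNA and of its link to p53, Heatr3 and Bccip fell by 0.28 and 0.21 (limma adjusted p = 0.022 and 0.0124). Calls were lost for Mybbp1a without culture 6 (adjusted p = 0.0522), for Dis3 without culture 4 (adjusted p = 0.0533) and for Heatr3 without culture 3, 5 or 6 (adjusted p between 0.0554 and 0.0593), in limma. Of the 5 partners of Ruvbl1 and Wdr77 none passed in limma, and 1 was lower at an unadjusted p under 0.05. Ruvbl2, the close relative that forms a ring with Ruvbl1, changed by -0.10 (SE 0.05, n = 6), and Prmt5 changed by -0.14 (SE 0.06, n = 6).

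**Figure D4:**
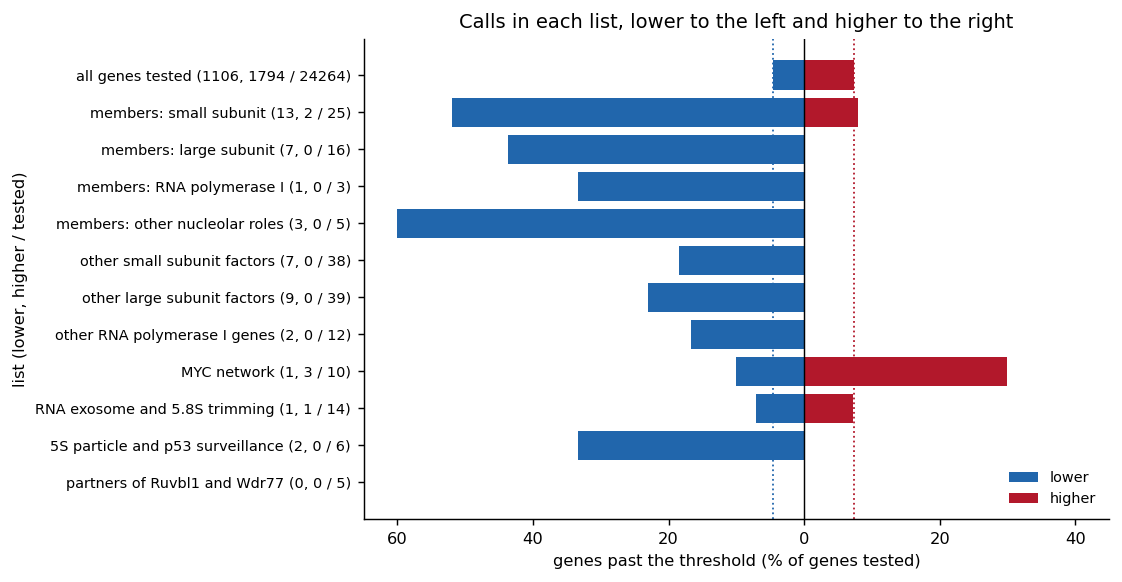
Share of tested genes called lower (bars to the left) and higher (bars to the right) in each class of members and each list of related genes, in percent, with the numbers called and tested in the labels. Dotted lines mark the shares over all genes, 4.56% lower and 7.39% higher, and the MYC network is the list with most genes called higher, 3 of 10.

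In the MYC network the activator Myc and the antagonists Mxd1 and Mxd4 were higher, and their partner Max was lower. Myc itself rose by 0.38 (SE 0.07, n = 6; limma adjusted p = 0.011), from 8.63, 8.67 and 9.01 in vehicle to 8.81, 9.18 and 9.32 in dexamethasone. It was higher in all 6 cultures although the groups overlapped. Max, the partner through which MYC and its antagonists bind DNA, fell by 0.49 (SE 0.05, n = 6; limma adjusted p = 0.000253), from 15.18 ± 0.06 (SD, n = 6) to 14.70 ± 0.08 (SD, n = 6). Mxd1, which competes with MYC for Max, rose by 0.97 (SE 0.05, n = 6; limma adjusted p = 1.11e-05), from 13.58 ± 0.08 (SD, n = 6) to 14.54 ± 0.18 (SD, n = 6). The groups of Max and of Mxd1 were apart. Mxd4, a related antagonist, rose by 0.30 (limma adjusted p = 0.00824), and the other 6 genes of the list did not pass. Without cultures 2 and 3, Myc and Mxd4 did not pass (limma adjusted p = 0.103 and 0.0869).

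Array medians lay within 0.0992 log2 units of each other and upper quartiles within 0.164, and arrays of a group correlated at 0.990 to 0.994 over all probe sets. The response to dexamethasone was seen in each of 6 glucocorticoid-induced genes, Tsc22d3, Fkbp5, Dusp1, Zbtb16, Klf9 and Per1, which were higher by between 1.24 and 2.48 with no overlap. Pf4, a platelet chemokine that defines megakaryocytes, was at 18.94 ± 0.03 (SD, n = 6) in vehicle and 18.95 ± 0.04 (SD, n = 6) in dexamethasone, and Itga2b changed by 0.14 (SE 0.05, n = 6) without passing. The summed level of 8 megakaryocyte markers was 20.27 to 20.37 in vehicle and 20.28 to 20.42 in dexamethasone. Within that list Gp9 rose by 0.44 and Tubb1 fell by 1.14.

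Neutrophil markers moved with the treatment. The summed level of all 11 was 11.81 to 14.54 in vehicle and 10.55 to 13.87 in dexamethasone, lower in every culture, and S100a9 and S100a8 fell by 0.77 and 0.51 (limma adjusted p = 0.0292 and 0.0474). Both calls were lost without culture 1, 3 or 4, and that of S100a8 also without culture 5 or 6 (adjusted p between 0.0533 and 0.103). Of the 10 tested, 4 were lower and Mmp8 was higher, and 2 of the 11, Elane among them, were under the negative control median on all arrays. Culture 2, where these markers were lowest, and culture 3 had the smallest falls of the members, and without both 19 members were still called lower, against 24. In cultures 1 to 6 the neutrophil sum was 14.54, 11.81, 12.96, 13.96, 14.16 and 13.99 in vehicle. With dexamethasone it was 13.76, 10.55, 12.44, 13.61, 13.87 and 13.77, so the neutrophil markers themselves fell furthest in culture 2. Mast cell and basophil markers summed to 9.59 to 9.81 in vehicle and 9.84 to 10.09 in dexamethasone with no overlap. Of the 7 tested, Cpa3, a mast cell protease, rose by 0.64 and Gata2 by 0.21 (limma adjusted p = 0.00146 and 0.0168). Mcpt8, a basophil protease, went the other way and fell by 0.28 (limma adjusted p = 0.0407), a call that held in 6 of 17 other settings. Of the 8 markers, 3 were under the negative control median on all arrays. Stromal and endothelial markers summed to 12.34 to 12.57 and 12.14 to 12.27, also with no overlap, and the endothelial receptor Kdr fell by 1.01 (limma adjusted p = 2.11e-05), while 5 of the 7 were under the negative control median on all arrays. The sums of monocyte markers were 17.29 to 17.57 in vehicle and 17.42 to 17.61 in dexamethasone. All sums add linear values, so the brightest markers set them, and the median vehicle level over the monocyte markers was only 6.47. Of the 7 tested, only Ccr2 was called, and it fell by 0.42 (limma adjusted p = 0.000963). In that list 2 of the 7 were under the negative control median on all arrays. Erythroid markers summed to 9.03 to 9.54 and 9.26 to 9.48, and 3 of the 5 with a value were under it on all arrays. Lymphocyte markers summed to 8.08 to 8.34 and 8.06 to 8.24, and 6 of the 7 were under the negative control median on all arrays. The part of these cell types in the changes of the members was not tested.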

How the data were processed

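RNA of 6 vehicle and 6 dexamethasone arrays was measured from 50 ng of total RNA that was amplified and labelled with biotin, per the labels' protocols. The authors deposited log2 values per probe set; no source used here states their background correction, normalization or annotation version. The values were used as deposited, because array medians differed by only 0.0992. Those medians, 5.57 to 5.67, lay under the negative control medians of 6.15 to 6.39, so they say little about scale at the members' levels. The upper quartiles of the arrays differed by 0.164. Of 72688 probe sets, 30604 carried 1 gene symbol in the platform annotation and 2146 several, and 833 symbols were updated through RefSeq gene identifiers. The probe set with the highest mean over the 12 arrays stood for each of 30140 genes. The members and the lists were chosen with earlier results of these data known.

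Genes above the 25th percentile of their array on at least 6 arrays were tested with limma 3.58.1 (lmFit and eBayes, R 4.3.3, two-sided), with culture as a block and Benjamini-Hochberg adjustment over 24264 genes. A gene was called at an adjusted p under 0.05. Each culture was divided between the treatments, per the labels' protocols, so arrays of 1 number were paired. Same-numbered arrays deviated together with a mean correlation of 0.157 (0.049 to 0.247), against -0.032 for other numbers; 4 of the 6 pairs were over 0.1, and in 4 the best match was the array of the same number. The pairing rests on the protocol. On simulated data with 24264 genes, 64% of changes of -0.5, 18% of changes of -0.25 and 0.0208% of unchanged genes were called. The alternatives were other scalings, filters, blocks and probe set rules, and leaving out cultures. Members could all be named. From each related list up to 4 called genes per direction were named by size, plus Myc, and from the marker lists Pf4, Itga2b, S100a8, S100a9 and up to 4 called genes. Array precision is limited by the 6 arrays in each group. Promoter windows were searched for the printed letters on both strands with Python 3.11.15.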

Additional observations from a re-analysis of the deposited data

Results flagged for a closer look

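In each group of 6 arrays the highest or lowest array was compared with its nearest neighbour, over the 50 members and both treatments. Chance marks about 1 in 20 such groups, and 4 of 100 were marked. Utp18 had its lowest dexamethasone value in culture 1, at 8.09 against 8.36 for the next array, and its highest vehicle value in culture 6, at 8.997 against 8.68. Wdr3 and Riok2 had their lowest dexamethasone values in culture 6, Wdr3 at 7.54 against 7.75 for the next array and Riok2 at 8.69 against 8.93. The call of Utp18 held without culture 1 and without culture 6, and that of Riok2 held without culture 6.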

How the results depend on the processing

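No member changed sign under any of the 17 other settings, but only the other scalings and leaving out cultures could alter a member's change. The other filters, blocks, fits and probe set rules leave it as it is, since each member has 1 probe set and each culture has both treatments. Of the 24 members called lower, 13 were called lower in all 17, and the other 11 lost the call in at least 1. Members called lower numbered 37 with quantile normalization, 17 with each array centred on its median, 15 with all probe sets fitted, 19 with no replicate block, 26 with the replicate block as a random effect (23 of them among the 24) and 18 to 22 with 1 culture left out. Filters at the 50th percentile and at the negative control median gave 30 and 32, no filter gave 23, and leaving out cultures 2 and 3 gave 19. Without the 10 members listed first, an alternative chosen after seeing the data, the count was 14 and the median of the members with other nucleolar roles was -0.0947.

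The 2 members called higher became 1 with quantile normalization, with no filter and with the block as a random effect, 0 with no replicate block, with all probe sets fitted and without cultures 2 and 3, and 0 to 3 with 1 culture left out. The 16 other subunit factors called lower became 25 with quantile normalization, 9 with median centring, 7 with all probe sets fitted, 10 without cultures 2 and 3 and 8 to 16 with 1 culture left out. Over all genes, 1738 were lower with quantile normalization (44.9% of calls higher, against 61.9%) and 726 with median centring (70.3% higher). With all probe sets fitted, 1482 genes passed, 956 higher and 526 lower, and without cultures 2 and 3 these counts were 1270, 732 and 538. With 1 culture left out 1876 to 2334 genes passed, 1163 to 1520 higher and 711 to 853 lower. All members have 1 probe set, so no other probe set of a member could be tried. Changes near the size of the members' median were found in a minority of cases on simulated data, so a member that did not pass is not shown to be unaffected.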
